A study of Homo sapiens with 16 samples.

Results

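The response of wild-type (WT) MDA-MB-231 cells to cisplatin was taken as the FPKM of WT cisplatin over that of WT control, and it is described here for 9351 of the 60658 genes in the deposited tables. FPKM is a fragment count scaled by transcript length and by the fragments sequenced. A gene was included when it had 5 FPKM or more in one of the groups, the ratio was log2(FPKM + 1) in cisplatin minus control, and the median over the included genes (0.12) was subtracted because each drug's table was scaled on its own. MDA-MB-231 is a human triple-negative breast cancer line. WT control and WT cisplatin had 2 samples each of the 16 in the series, all at passages 10 to 15, and no dose or time of treatment is given in the sources used here. The same line with a BMAL1 knockout (KO) was treated in parallel and gave KO control and KO cisplatin, and WT cells also received doxorubicin or tunicamycin; whether the knockout is a single clone is not stated in the labels. The authors' tables hold 1 FPKM per group made from both samples, so no difference below has a test, a standard deviation or a replicate check, and a gene is counted where it differed at least 2-fold (a centred log2 ratio of 1 or more in size).

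Cisplatin binds DNA and joins neighbouring purines, mostly on the same strand. Such adducts stop replication forks and also the elongating RNA polymerase II, and they are removed by nucleotide excision repair, while crosslinks between strands need the Fanconi pathway. The length of template that the polymerase crosses is the genomic span of a gene, introns included, and in human cells it varies far more than the length of the mature mRNA. Cells that sense the damage are known to induce the inhibitor of cyclin-dependent kinases p21 (CDKN1A) and early stress genes such as ATF3 and GADD45A.

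An error was set beside each ratio from the test statistic that the authors deposited for KO against WT. The log2 ratio over the statistic gives an error for each table, and the root of the summed squares of the control and cisplatin tables is called the error bound here. It holds the spread of the KO samples too, and it is no test. Its median was 0.26 over the 9279 genes that had one (5th to 95th percentile 0.06 to 0.75). Read depth is not known from FPKM. The 5th percentile of values above 0 served as a rough stand-in, which also depends on how each table was scaled. By it, depth was 2.05 times higher in WT cisplatin than in WT control, 1.35 times in KO control and 1.62 times in KO cisplatin. If so, low values of WT control are the least precise of these. FPKM is a share of each library's RNA, so a change in RNA per cell that all genes share cannot be seen.

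WT control stood apart from the other 7 groups for a set of genes, which touches every ratio over it. After centring, 99 genes were at least 2-fold lower in WT control than in every other group and 31 were higher, against 2 and 9 for WT cisplatin and 1 and 7 for KO control. Of the 99, 55 were pseudogenes and 24 were protein-coding. TUBA1A, an alpha tubulin with near-identical relatives, had 64.1 FPKM in WT control and 630 in WT cisplatin, but 513 in KO control and 628 in KO cisplatin. TUBB2B, a beta tubulin, went from 2.11 FPKM in WT control to 62.6 in WT cisplatin, with 29.5 and 50.9 in the KO groups. For such genes the ratio shows a low WT control, and what set it apart was not tested. They make up 70 of the genes counted as higher below and 31 of those counted as lower.

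ARNTL, the gene of BMAL1, had 5.67 FPKM in WT control and 0.889 in KO control, and 1.26 in WT cisplatin against 0.941 in KO cisplatin. Its log2 ratio in WT cells was -1.67 with an error bound of 1.94, so the bound exceeds the difference. All 8 markers listed for MDA-MB-231, such as VIM, CD44 and AXL, passed 5 FPKM, and none of 10 genes known to be low or absent in the line did (ESR1, PGR and CDH1 among them). One extraction protocol speaks of fibroblast lines. Of 12 fibroblast markers, 2 passed 5 FPKM, 5 were listed at 0 in WT control, and the list summed to 10.2 FPKM in WT control and 12.9 in WT cisplatin. None of 8 endothelial markers passed 5 FPKM, and of 11 leukocyte markers only CD68 did, a lysosomal gene whose WT control value is among those that stand apart.

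In WT cells, 411 genes (4.4% of those included) were at least 2-fold higher after cisplatin and 506 (5.41%) at least 2-fold lower. Without centring these counts were 567 and 401. A gene under 5 FPKM in one group was included only through the other, so near the threshold inclusion favours a difference. The middle 50% of genes lay between -0.38 and 0.36 on the log2 scale. Protein-coding genes were 308 of the higher and 442 of the lower genes, and pseudogenes were 55 and 16. Of the genes with a call and an error bound, 272 of 365 higher and 374 of 482 lower genes had a ratio of at least 2 error bounds. At the inclusion threshold, CASP8AP2 (3.18 to 5.001 FPKM) and ZNF343 (2.35 to 5.006) lay just inside, and SLC25A33 (4.995 to 4.97) and RP11-175O19.4 (4.998 to 2.46) just outside; 458 genes had a higher group value of 5 to 6 FPKM and 532 of 4 to 5.

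KO cells, whose libraries are not shared with the WT comparison, gave a second measurement of the drug. There, 298 of 9367 genes (3.18%) were higher by 2-fold or more and 821 (8.76%) were lower by that much. Of the WT genes, 138 were higher in both (33.6% of the WT list and 46.3% of the KO list) and 309 were lower in both (61.1% and 37.6%). Where the gene was included in both, 419 of 431 lower WT genes and 328 of 366 higher WT genes had the same sign in KO. Across the 8891 genes included in both, Pearson's r of the ratios was 0.67 and Spearman's correlation 0.66; genes are not independent replicates, and both are descriptions. Only Y_RNA and TUG1_1, both small noncoding RNA entries named here after their values were seen, were at least 2-fold in opposite directions. Of the WT lists, a larger share of the lower than of the higher genes was thus found in KO cells too. More genes were lower (8.76%) than higher (3.18%) in KO cells to begin with. Of the KO lists, the higher genes had the larger share found in WT cells (46.3% against 37.6%).

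**Figure D1:**
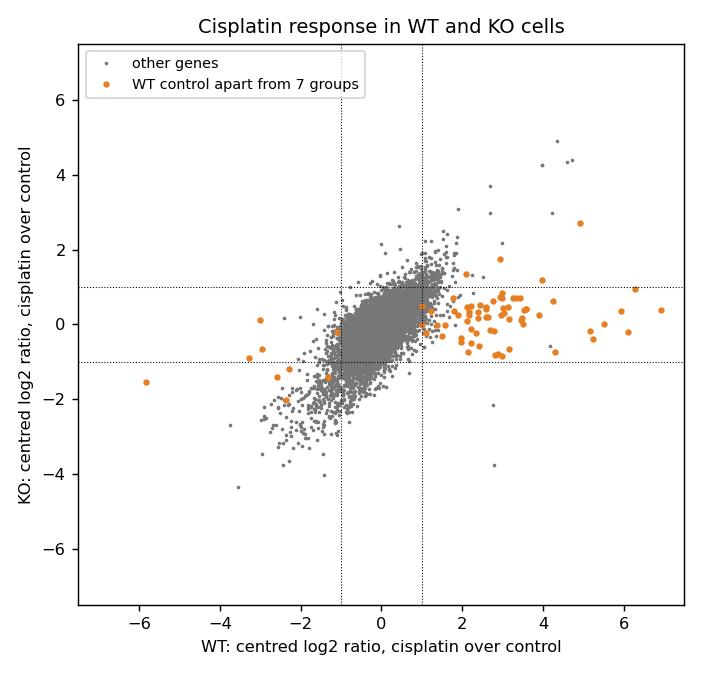
Centred log2 ratio of cisplatin over control in WT (x axis) and KO cells (y axis) for 8891 genes; each point is 1 gene, dotted lines mark 2-fold, and orange points are genes whose WT control lay at least 2-fold beyond all other groups. Grey points run along the diagonal, with 309 genes in the lower left corner and 138 in the upper right, while an orange point such as TUBA1A lies at 3.16 in WT and 0.14 in KO cells.

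Most genes that were lower after cisplatin were long. The median span of the 501 lower genes with a GENCODE entry was 176 kb, against 28.7 kb for all included genes and 10.7 kb for the higher ones, and 334 of the 501 (66.7%) spanned over 100 kb against 15.8% of all. By span, the median log2 ratio was 0.22 under 10 kb (2066 genes), 0.16 at 10 to 30 kb (2742), -0.07 at 30 to 100 kb (3048), -0.43 at 100 to 300 kb (1269) and -1.35 over 300 kb (206). The ratio thus went from above to below the centre as span grew. Of the genes over 300 kb, 126 (61.2%) were at least 2-fold lower and 1 (0.485%) was higher; under 10 kb the shares were 3.29% and 9.10%. In KO cells the medians ran from 0.18 under 10 kb to -1.80 over 300 kb, and 74.3% of the longest genes were at least 2-fold lower. With the other drugs, which share the WT control, the median over 300 kb was -0.22 for doxorubicin and -0.02 for tunicamycin.

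**Figure D2:**
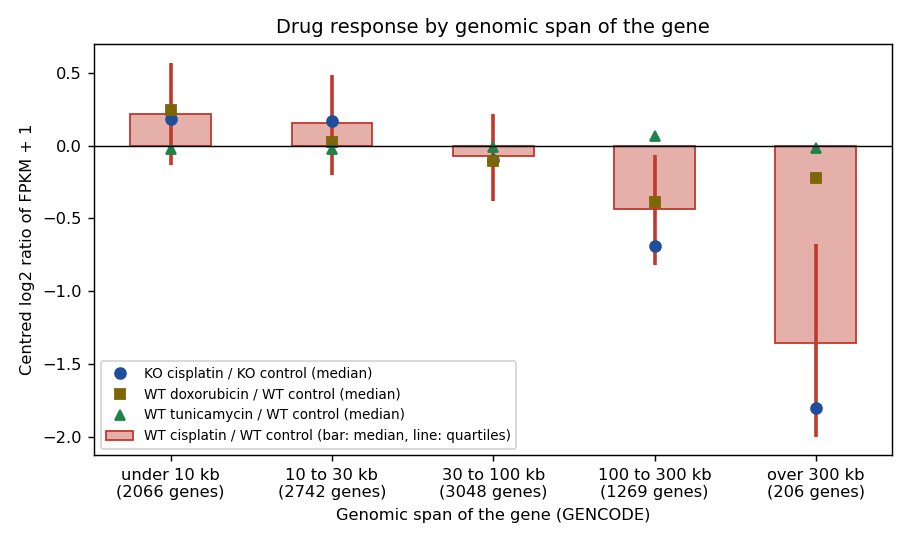
Median centred log2 ratio by genomic span in 5 bins; red bars are WT cisplatin over WT control with lines from the lower to the upper quartile over genes, and points are the medians of KO cisplatin, WT doxorubicin and WT tunicamycin over their own controls. The WT cisplatin median goes from 0.22 in the shortest bin to -1.35 in the longest and KO cisplatin to -1.80, while tunicamycin stays near 0 in each bin.

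The planned measure of span was the locus column of the tables, which merges neighbouring genes: 3184 of 9351 loci were over 1.5 times the GENCODE span. With it the median was 0.22 under 10 kb and -0.46 over 300 kb (603 genes), and 27.5% of the longest were at least 2-fold lower. With the RefSeq span the values were 0.22 and -1.36, and 61.7% (119 of 193). The direction was the same by each measure, and the size differed. The pattern was also there at each level of expression: among genes over 300 kb, 69.0% were at least 2-fold lower at a mean under 10 FPKM, 50.7% at 10 to 30 FPKM and 53.8% at 30 FPKM or more. Without the genes whose WT control stood apart, the share was 61.0%. Across all included genes, Spearman's correlation between GENCODE span and the log2 ratio was -0.40 in WT cisplatin, -0.48 in KO cisplatin, -0.10 in WT doxorubicin and 0.04 in WT tunicamycin, as descriptions over genes.

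The ratio followed the length of the mature RNA less closely than the span. Over the 8881 protein-coding genes, Spearman's correlation with the ratio was -0.42 for span, -0.43 for intronic length and -0.12 for exonic length (all exons of a gene merged). Protein-coding genes were split by exonic length into 3 sets of like size. In the set with the shortest exons (up to 3.77 kb), the median ratio was 0.16 at spans up to 30 kb and -0.88 over 100 kb, and 45 of 117 genes over 100 kb (38.5%) were at least 2-fold lower. In the set with the longest exons (6.42 kb or more), it was 0.23 and -0.43, and 194 of 992 (19.6%) were. In KO cells the medians over 100 kb were -0.77, -0.76 and -0.77 from the shortest to the longest exons, so the order by exon seen in WT cells was not seen there. In both genotypes and all 3 sets, the median was above 0 up to 30 kb and below 0 over 100 kb.

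GMDS (ENSG00000112699), the enzyme that starts GDP-fucose synthesis, had the lowest WT ratio among protein-coding genes that passed 5 FPKM in both genotypes and were at least 2-fold lower in both. It lies on chromosome 6 from 1623806 to 2245692 on the minus strand (GRCh38, GENCODE) and spans 622 kb. Its FPKM was 39.8 in WT control and 2.31 in WT cisplatin, and 20.7 and 2.73 in KO control and KO cisplatin. Both cisplatin values lie far under both controls. The log2 ratio was -3.74 (13.4-fold lower, error bound 0.55). CDH4 (ENSG00000179242), R-cadherin, spans 688 kb on chromosome 20 from 61252426 to 61940617 on the plus strand. It went from 49.6 to 3.68 FPKM in WT cells (log2 ratio -3.55, error bound 0.22) and from 44.7 to 1.51 in KO cells, and it had 49.9 FPKM in WT doxorubicin and 71.3 in WT tunicamycin. Of these 6 groups, only those given cisplatin were low.

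Other genes over 300 kb went the same way. FHIT, a diadenosine hydrolase that spans 1502 kb across a common fragile site, went from 21.2 to 2.21 FPKM, but its error bound of 1.85 is wide beside a log2 ratio of -2.90. DPYD, which degrades pyrimidines, spans 917 kb and went from 24.5 to 2.68 FPKM (log2 ratio -2.91, error bound 0.44). SMYD3, a lysine methyltransferase, went from 41.3 to 5.35 FPKM (-2.85, error bound 0.40). These were as low in KO cisplatin, at 2.35 FPKM for FHIT, 1.32 for DPYD and 6.50 for SMYD3. More abundant long genes were also lower. ADK, adenosine kinase, spans 558 kb and went from 135 to 27.9 FPKM (-2.35, error bound 0.15). SND1, a nuclease with staphylococcal folds, went from 102 to 26.6 FPKM (-2.02, error bound 0.17), and SIL1, an exchange factor for the endoplasmic reticulum (ER) chaperone BiP, from 87.2 to 16.9 FPKM (-2.41, error bound 0.28). SLC39A11, GPHN, CDKAL1, PITPNC1, MSI2, UBE2E2, WDR70, LRBA and PDSS2, each over 300 kb, had log2 ratios from -2.98 (SLC39A11) to -2.57 (PDSS2) in WT cells.

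**Figure D3:**
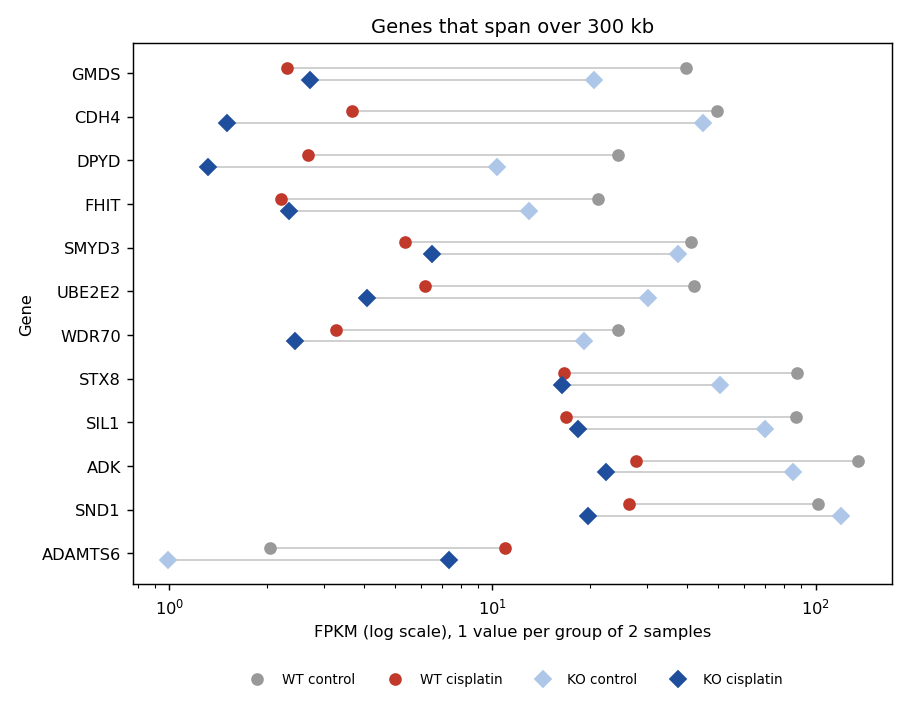
FPKM on a log scale (x axis) of 12 genes that span over 300 kb (y axis), 1 point per group: WT circles in grey (control) and red (cisplatin), KO diamonds in light and dark blue, joined within a genotype. For 11 genes both cisplatin points lie left of both controls, as for CDH4 at 3.68 and 1.51 against 49.6 and 44.7 FPKM; ADAMTS6 lies the other way.

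Of the 206 genes over 300 kb, 15 had a ratio above 0. ADAMTS6, a secreted metalloprotease of 333 kb, was the one that was at least 2-fold higher, from 2.05 to 10.9 FPKM in WT and from 0.989 to 7.34 in KO cells (WT log2 ratio 1.85, error bound 0.88). It was included only through its cisplatin value, as were NAV3 and BACH1 among the 15. The antisense transcript ENTPD1-AS1 followed at 0.99; with no strand setting stated for the counting, reads of its sense partner cannot be told apart from it. The other 13 lay between 0.01 and 0.47, among them the transcription factors FOXP1 (21.2 to 30.8 FPKM) and RUNX1 (12.5 to 17.2 FPKM) and the GTPase regulator DLC1 (29.1 to 39.6 FPKM). Their levels after cisplatin stayed within 1.5-fold of control on the centred scale. In WT doxorubicin the same 3 had 1.89, 1.33 and 1.83 FPKM, far under the WT control they share.

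Among lists of genes with a common role, the lower members were long in some and short in others. The 6 genes of the G2/M and spindle list that were at least 2-fold lower all span 100 kb or less, as do 45 of the list's 46 members. So do the 3 lower splicing regulators and all 38 members of that list. In these lists the lower members could thus hardly be long. Collagens make up fibrils and basement membrane. They had the lowest median of any list with 10 members or more, -0.93 over 10 chains (-1.74 in KO). Of the 10, 5 were at least 2-fold lower, against 5.41% of all included genes and 334 of the 1475 that span over 100 kb. All 5 span over 100 kb: COL13A1 (91.0 to 23.9 FPKM), COL5A1 (11.7 to 2.48), COL8A1 (23.0 to 9.54), COL4A1 (11.95 to 4.01) and COL4A2 (41.3 to 19.7). The median was -1.30 over the 7 chains that span over 100 kb and 0.36 over the other 3. COL1A1, a chain of 18.3 kb, went from 2.32 to 7.30 FPKM (log2 ratio 1.21, error bound 0.82), and was included only through its cisplatin value.

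DNA repair genes as groups stayed near the centre. Of 20 genes of nucleotide excision and transcription-coupled repair, none differed at least 2-fold, with a median of -0.02. Over all included genes 4.4% were at least 2-fold higher and 5.41% lower, so a count of none in 20 is near those shares. Fanconi and crosslink repair (25 genes) had a median of -0.02, and homologous recombination and damage signalling (33 genes) of -0.05. All 3 medians turn to above 0 without centring. The damage sensor XPA went from 16.3 to 12.4 FPKM, and its partner nuclease ERCC1 from 84.6 to 92.4 (log2 ratio 0.01, error bound 0.10). FANCD2, the crosslink repair protein, went from 25.4 to 13.9 FPKM (-0.94, error bound 0.57). POLH, a polymerase that reads past cisplatin adducts, had 6.25 and 7.96 FPKM.

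A few single repair genes were at least 2-fold lower, and those named here are long. The lists differed in how their medians went with length. Of 3 Fanconi and crosslink genes over 100 kb, 1 was at least 2-fold lower, and of 5 homologous recombination genes 1 was. The 3 Fanconi and crosslink genes had a median of -0.41, against 0.03 over the 22 shorter ones. The 5 homologous recombination genes had a median of -0.05, against -0.07 over the 28 shorter ones. XRCC4 belongs to none of these lists and was named for its low ratio. RAD51B, a homologous recombination gene that spans 910 kb, went from 8.82 to 0.818 FPKM (log2 ratio -2.55, error bound 2.14) and in KO cells from 5.13 to 0.759. XRCC4, a ligation scaffold of end joining that spans 276 kb, went from 25.03 to 3.49 FPKM (-2.65, error bound 0.31). FANCC (328 kb) went from 8.63 to 3.27 FPKM (-1.29, error bound 0.62). Each was also lower in KO cells, with log2 ratios of -1.95 for RAD51B, -2.02 for XRCC4 and -1.43 for FANCC.

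Platinum enters and leaves cells through copper and anion carriers. SLC31A1, the main copper importer, had 14.0 FPKM in control and 14.5 in cisplatin (log2 ratio -0.06, error bound 0.17). The copper pumps ATP7A and ATP7B stayed under 1 FPKM in both groups. ABCC4, an exporter of 282 kb, went from 9.14 to 2.88 FPKM (-1.503, error bound 0.30), and in KO cells from 14.9 to 2.94. The metallothionein MT2A, a metal-binding protein, had 1082 and 944 FPKM (-0.31, error bound 0.04). MT1H, of the same family, went from 0.387 to 7.07 FPKM, but its WT control stands apart and KO cells had 9.04 and 6.49. Of this list's 13 included genes, 1 was at least 2-fold higher (MT1H, included only through its cisplatin value) and 1 lower (ABCC4). Over all included genes 4.4% were higher and 5.41% lower, so these counts show nothing particular to the list.

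Several of the genes that were higher in both genotypes act in stress responses or transcription. OSGIN1, an NRF2 target that slows growth, went from 5.96 to 34.4 FPKM in WT cells (log2 ratio 2.23, error bound 0.27) and from 18.7 to 53.6 in KO cells. RRAD, a small GTPase, went from 5.68 to 25.1 FPKM (1.85, error bound 0.33), and CDR2L from 12.4 to 48.7 (1.78, error bound 0.17). Both genotypes were higher after the drug for each of these genes. POLR2A, the large subunit of RNA polymerase II, went from 36.4 to 139 FPKM in WT (1.79, error bound 0.10) and from 43.4 to 139 in KO cells. It had 79.8 FPKM in WT doxorubicin and 47.6 in WT tunicamycin, whose tables were scaled apart; the centred log2 ratios over the shared WT control were 1.83 for doxorubicin and 0.48 for tunicamycin. CA2 (carbonic anhydrase), SLC6A8 (the creatine carrier), HSPB8 (a small heat shock protein), SNAI1 (a repressor of epithelial genes), RDH10 (a retinol dehydrogenase), PDLIM4 and RAET1L had log2 ratios from 1.67 (PDLIM4) to 2.52 (RAET1L), also at least 2-fold higher in KO cells.

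**Figure D4:**
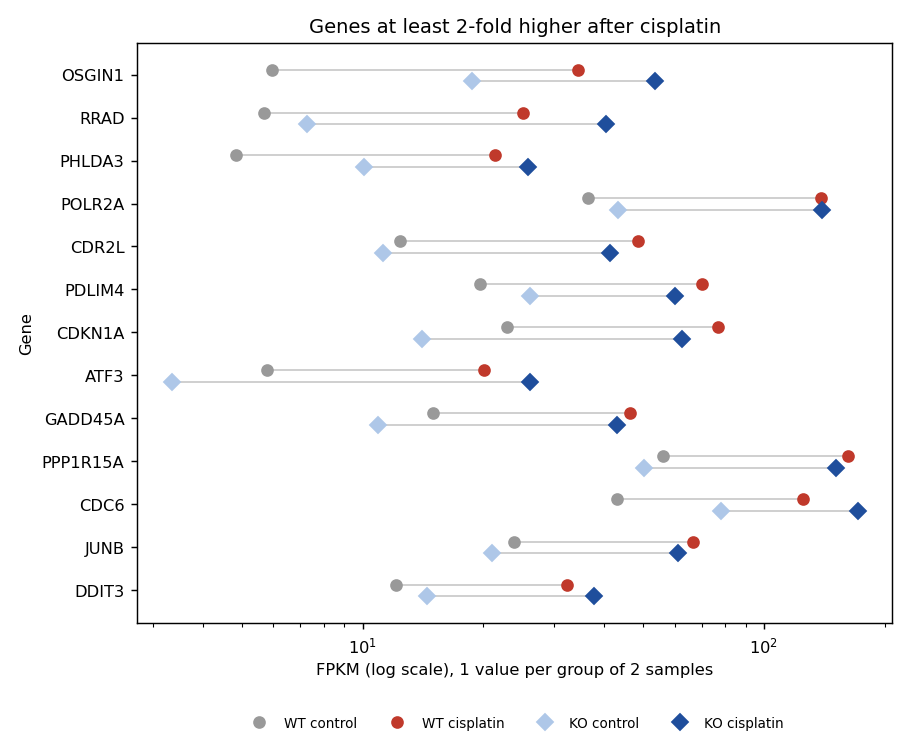
FPKM on a log scale (x axis) of 13 genes at least 2-fold higher in WT cisplatin (y axis), 1 point per group: WT circles in grey (control) and red (cisplatin), KO diamonds in light and dark blue, joined within a genotype. In each genotype the cisplatin point lies right of its own control for all 13 genes, as for POLR2A at 139 FPKM in both genotypes against 36.4 and 43.4.

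Promoter sequences are shown for 4 of the higher genes, chosen after their letters were seen because each has a motif of stress-responsive or basal transcription. They are the 160 bases before the start site in RefSeq (GRCh38.p14), 5′ to 3′ on the gene's strand, with motif letters in capitals.
PPP1R15A, chr19:48872261-48872420, plus strand: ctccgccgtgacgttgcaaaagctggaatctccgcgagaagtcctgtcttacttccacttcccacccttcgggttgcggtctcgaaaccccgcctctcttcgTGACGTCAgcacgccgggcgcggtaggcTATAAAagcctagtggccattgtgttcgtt
JUNB, chr19:12791326-12791485, plus strand: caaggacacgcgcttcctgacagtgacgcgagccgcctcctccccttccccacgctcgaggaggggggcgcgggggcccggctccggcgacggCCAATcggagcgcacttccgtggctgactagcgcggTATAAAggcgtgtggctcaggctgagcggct
OSGIN1, chr16:83953080-83953239, plus strand: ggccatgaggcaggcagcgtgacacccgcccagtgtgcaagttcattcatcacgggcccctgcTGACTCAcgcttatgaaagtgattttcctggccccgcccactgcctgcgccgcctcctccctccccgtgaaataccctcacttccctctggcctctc
ADAMTS6, chr5:65481921-65482080, minus strand: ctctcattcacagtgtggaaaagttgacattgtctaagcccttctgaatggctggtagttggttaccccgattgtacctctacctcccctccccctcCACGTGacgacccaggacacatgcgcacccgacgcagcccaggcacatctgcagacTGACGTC

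In these windows PPP1R15A has a cyclic AMP response element (CRE, TGACGTC) that starts 58 bases and a TATA box (TATAAA) that starts 30 bases before the start site. JUNB has a CCAAT box (CCAAT) and a TATA box, OSGIN1 an AP-1 motif (TGANTCA), and ADAMTS6 an E-box (CACGTG) and a CRE. Motifs were searched on both strands in the window of 250 bases before to 50 after the start, 1 window per gene, for 7076 of the 9351 included genes. A TATA box was present in 7.96% of the higher, 6.18% of the lower and 4.79% of all included promoters. AP-1 was present in 6.19%, 3.37% and 4.11%, and the CRE in 7.08%, 5.06% and 6.23%. The CCAAT box (35.8%, 36.8% and 37.5%), the E-box (11.5%, 8.99% and 10.9%) and an E2F motif (TTTNGCG, 7.52%, 7.58% and 8.54%) were present in these shares of the higher, lower and all included promoters. Among all 27195 RefSeq promoters of this length, the shares were 12% for the TATA box, 7.69% for AP-1, 3.63% for the CRE, 35.7% for the CCAAT box, 7.42% for the E-box and 5.2% for E2F.

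Genes known to be induced by DNA damage were among the higher ones. CDKN1A (p21) went from 22.9 to 76.9 FPKM in WT (log2 ratio 1.59, error bound 0.21) and from 14.1 to 62.4 in KO cells. GADD45A, a stress sensor, went from 15.0 to 46.3 FPKM (1.45, error bound 0.25), and PHLDA3, an inhibitor of AKT, from 4.85 to 21.4 (1.82, error bound 0.40). These 3 were higher in both genotypes. PHLDA3 was included in WT cells only through its cisplatin value. MDM2, a ubiquitin ligase, had 23.2 and 17.0 FPKM (-0.54, error bound 0.60). GDF15, a secreted stress factor, stayed under the threshold at 2.30 and 4.65 FPKM.

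Of 46 genes of G2/M and the spindle, 23 were at least 1.5-fold lower (15.2% of all included genes were) and 1 higher (14.2%), 6 of them at least 2-fold lower, and the median was -0.58 in WT and -0.39 in KO cells. CENPF, a kinetochore protein, went from 148 to 64.8 FPKM (log2 ratio -1.29, error bound 0.15), and ASPM, a spindle pole protein, from 25.6 to 11.6 (-1.19, error bound 0.11). In KO cells CENPF went from 63.4 to 45.7 FPKM and ASPM from 14.0 to 6.81. The KO log2 ratios were -1.08 for ASPM and -1.04 for CENPE. For CENPF, TTK, DLGAP5 and NUF2, also among the 6, they lay between -0.81 and -0.37, under 2-fold. CCNB1, cyclin B, named here after its value was seen, went from 386 to 215 FPKM in WT cells (-0.96). Of these genes 45 of 46 span 100 kb or less, and their median was -0.59. S-phase genes were centred at 0.11 over 44 genes, with 8 at least 1.5-fold higher and 4 lower, against 14.2% and 15.2% of all genes. CDC6, which loads the replicative helicase, went from 43.0 to 125 FPKM (1.40, error bound 0.16), MCM2, a helicase subunit, from 58.9 to 141 (1.13, error bound 0.11), and the nucleotide reductase RRM2 from 267 to 595 (1.04, error bound 0.07). Cyclin E2 (CCNE2) had 15.2 and 33.8 FPKM. In the same list PRIM2 (332 kb) and POLA1 (303 kb), subunits of the primase complex, were lower, at 19.6 to 8.17 and 9.06 to 4.34 FPKM.

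Of 11 anti-apoptotic genes, the decoy receptor TNFRSF10D was 2-fold or more higher (4.69 to 13.4 FPKM, log2 ratio 1.22, error bound 0.22), and the inhibitors BIRC2 (70.3 to 43.0) and BIRC3 (9.07 to 4.70) were at least 1.5-fold lower. TNFRSF10D was included only through its cisplatin value. Of all included genes, 14.2% were higher and 15.2% lower, so these counts show nothing particular to the list. The list's median was -0.15, -0.24 in KO cells.

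Stress branches went in different directions. Of 27 genes of ATF4 and the integrated stress response, 7 were at least 1.5-fold higher (14.2% of all included genes were) and 4 lower (15.2%), with a median of 0.14. PPP1R15A, which restores translation, went from 56.1 to 162 FPKM in WT (log2 ratio 1.40, error bound 0.07) and from 50.3 to 152 in KO cells. ATF3 went from 5.77 to 20.1 FPKM (1.52, error bound 0.72), and DDIT3 (CHOP), a death-promoting factor, from 12.1 to 32.3 (1.23, error bound 0.28). These transcription and feedback factors were higher, while the amino acid carrier SLC7A5 went from 497 to 247 FPKM (-1.12, error bound 0.04). Of 23 genes of the unfolded protein response, none was at least 1.5-fold higher and 11 were lower, with medians of -0.58 in WT and -0.57 in KO cells. HSPA5 (BiP), its main chaperone, went from 311 to 139 FPKM (-1.27, error bound 0.03) and in KO from 358 to 117; it had 5887 FPKM in WT tunicamycin. The sensor ATF6 (198 kb) went from 11.7 to 5.41 FPKM. The 20 members of up to 100 kb had a median of -0.46, the 3 longer ones of -1.11.

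Early response and chaperone genes were mixed. Among 33 immediate early and MAPK feedback genes, 9 were at least 1.5-fold higher (14.2% of all included genes were) and 5 lower (15.2%), with a median of 0.06. The list holds 40 genes, so the threshold itself can favour higher members in this count. JUNB went from 23.9 to 66.6 FPKM (log2 ratio 1.33, error bound 0.13), and EGR1 from 3.08 to 11.6 (1.51, error bound 0.28). EGR1 had under 5 FPKM in WT control, as did FOS (2.66 to 6.01 FPKM), and both were included only through their cisplatin values. MYC, with 60.1 and 59.5 FPKM, did not differ beyond 1.5-fold (-0.13, error bound 0.08). HSPA8, the constitutive cytosolic HSP70, went from 2244 to 1120 FPKM (-1.12, error bound 0.03) in WT and from 2662 to 1376 in KO cells, and of 23 chaperones 3 were at least 1.5-fold lower and 1, HSPB8, higher, both under the shares over all genes (15.2% and 14.2%).

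Inflammatory and immune lists were above the centre in WT cells, and less so in KO cells for 2 of the 3. Of 18 NF-kB targets and cytokines, 9 were at least 1.5-fold higher and 1 lower (median 0.53, 0.11 in KO), where 14.2% of all included genes were higher and 15.2% lower; the same shares apply to the next lists. TNFAIP3, a feedback inhibitor, went from 1.17 to 6.06 FPKM (log2 ratio 1.59, error bound 0.98), ICAM1, an adhesion receptor, from 3.42 to 9.48 (1.13, error bound 0.36), and TRAF1 from 2.51 to 8.43 (1.31, error bound 0.27). TNFAIP3, ICAM1 and TRAF1 had under 5 FPKM in WT control and were included only through their cisplatin values. The list holds 35 genes, of which 18 were included, so the threshold itself can favour higher members in this count. Of 15 antigen presentation genes, 7 were at least 1.5-fold higher and none lower (median 0.47, 0.17 in KO). The peptide transporters TAP1 and TAP2 had 19.0 to 39.5 and 34.8 to 79.8 FPKM. HLA-C had 89.2 and 178 FPKM in WT but 164 and 199 in KO cells, so WT control was the low value; HLA genes have near-identical copies. Of 24 interferon response genes, 7 were higher and 3 lower (median 0.34, 0.36 in KO). IRF7 went from 5.78 to 18.9 FPKM (1.44, error bound 0.30) and ISG15 from 223 to 456 (0.91, error bound 0.12), with KO at 8.77 to 31.6 and 149 to 389. The difference between genotypes was not tested.

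ZNF zinc finger genes, mostly repressors with tandem DNA-binding fingers, were higher as a group in both genotypes. Of 145 included genes, 58 were at least 1.5-fold higher (14.2% of all included genes were) and 1 lower (15.2%). At 2-fold, 15 were higher (4.4% of all) and none lower (5.41%), with a median of 0.50 in WT and 0.47 in KO cells. The list holds 556 genes, and those included had a median span of 21.8 kb. Among all included genes of 10 to 30 kb, 10.2% were at least 2-fold higher at a mean under 10 FPKM (median 0.28). At 10 to 30 FPKM 6.45% were (median 0.19), so the 2-fold count is not far from that of short genes of low level. ZNF296 went from 3.52 to 15.4 FPKM (log2 ratio 1.75, error bound 0.28) and was included only through cisplatin. ZNF672 went from 11.7 to 35.2 (1.39, error bound 0.21) and ZNF384 from 12.03 to 34.6 (1.34, error bound 0.29). The 138 members of up to 100 kb had a median of 0.51 and the 7 longer ones of -0.34. In WT doxorubicin the median of the same genes was -1.10 and in tunicamycin 0.29, over the WT control they share.

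**Figure D5:**
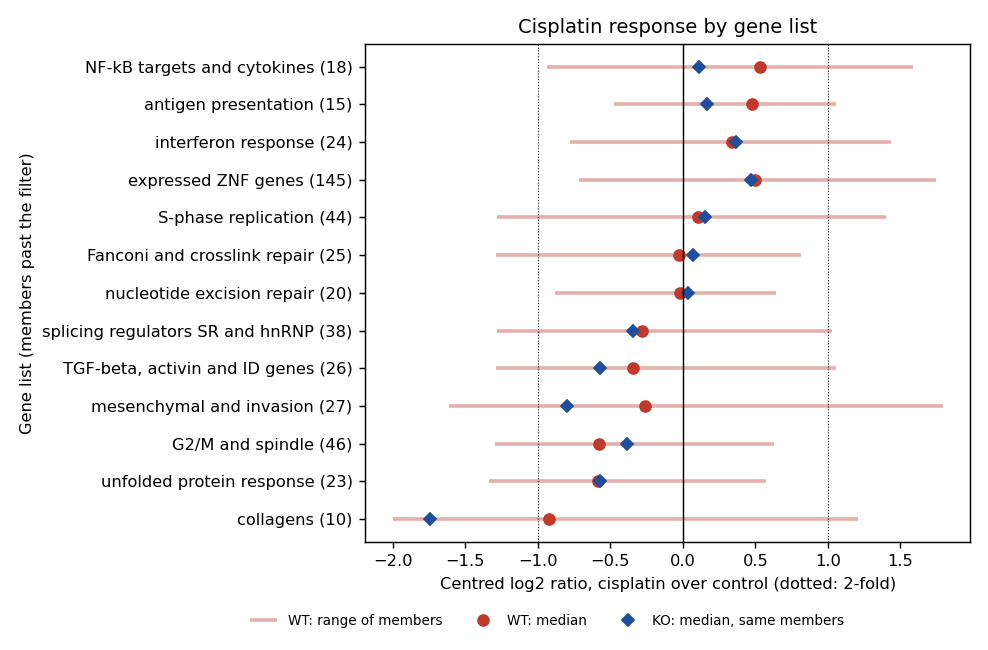
Centred log2 ratio of cisplatin over control (x axis) for 13 gene lists (y axis, with the number of included members); red points are WT medians, red lines run from the lowest to the highest member in WT, and blue diamonds are the KO medians of the same members. The medians run from 0.53 for NF-kB targets to -0.93 for collagens in WT cells, and most lists hold members on both sides of 0.

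RNA polymerase II and its elongation factors (40 genes) had a median of 0.26, with 7 at least 1.5-fold higher and 4 lower, against 14.2% and 15.2% of all included genes. The elongation factor SUPT5H went from 68.9 to 151 FPKM (log2 ratio 1.01, error bound 0.13), but in KO cells from 95.3 to 118. MNAT1, which assembles the kinase of TFIIH and spans 235 kb, went from 82.2 to 24.0 FPKM (-1.85, error bound 0.37). Of 38 SR and hnRNP splicing regulators, 10 were at least 1.5-fold lower and 2 higher (median -0.28, -0.34 in KO). HNRNPA1 had 1008 and 540 FPKM in WT and 1022 and 544 in KO cells, and HNRNPA2B1 had 1016 and 476 FPKM in WT and 745 and 361 in KO cells. Ribosome biogenesis (41 genes) had a median of 0.10, with BYSL at 40.7 to 118 FPKM (1.39, error bound 0.14).

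Matrix, adhesion and growth factor lists had medians below the centre; their counts at 1.5-fold are to be read against 15.2% lower and 14.2% higher over all included genes. Of 27 mesenchymal and invasion genes, 9 were at least 1.5-fold lower and 3 higher (median -0.26, -0.80 in KO). The laminin receptor subunit ITGA6 went from 137 to 47.8 FPKM (log2 ratio -1.61, error bound 0.09) and urokinase PLAU from 215 to 98.9 (-1.23, error bound 0.07), while SNAI1 went from 1.74 to 9.30 FPKM. SNAI1 was included only through its cisplatin value. In the TGF-beta, activin and ID list (26 genes), 8 were lower and 2 higher, with the receptor TGFBR2 at 42.0 to 22.4 FPKM and the target PMEPA1 at 63.5 to 27.6. Of 21 YAP/TEAD targets, 8 were lower and 3 higher, led by CRIM1 (195 kb), from 155 to 53.2 FPKM. Of 13 genes of the EGFR family and its ligands, 3 were lower and none higher, and EGFR had 37.0 and 28.6 FPKM in WT but 37.4 and 13.5 in KO cells.

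Metabolic and housekeeping lists were close to the centre. Glycolysis (21 genes, median -0.06), cholesterol synthesis (30 genes, -0.07), proteasome subunits (36 genes, -0.07) and nuclear complex I subunits (38 genes, -0.05) turn to above 0 without centring. Ribosomal protein genes (83) had a median of -0.13, with RPS23 at 3844 and 2095 FPKM in WT and 2793 and 2732 in KO cells. Among the most abundant genes GAPDH had 4337 and 6274 FPKM and ACTB 4663 and 3042, with log2 ratios of 0.42 and -0.73 that differ by more than their error bounds of 0.02 and 0.03. In WT cells the ratio of GAPDH was above and that of ACTB below the centre. In KO cells GAPDH had 6591 and 6965 FPKM (log2 ratio -0.07) and ACTB 2607 and 1173 (-1.30), so the higher GAPDH was not seen there. The largest FPKM losses in WT cells were in the mitochondrial MT-ND3 (6118 to 3147) and MT-ATP8 (6319 to 4214) and in NPM1 (5533 to 3457).

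The largest ratios of all were of another kind. Of the 15 highest genes, 14 were listed at 0 in WT control, 10 had a WT control apart from all other groups, 5 were spliceosomal small RNAs such as RNU6-42P and RNU4-1, and TUBB2B was the one with a value above 0 in both groups. Of the 15 lowest, 13 had a WT control that stood apart, such as RNU6-10P (366 FPKM in WT control and 0 in WT cisplatin and both KO groups), and 4 were protein-coding, GMDS and CDH4 among them. Of the 15 lowest, 9 were listed at 0 in WT cisplatin. No fold is given for genes listed at 0 in either group, since a ratio against such a value is set by the pseudocount. In all, 45 higher genes were listed at 0 in control and 12 lower genes at 0 in cisplatin.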

How the data were processed

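Total RNA of MDA-MB-231 cells was treated with DNase and sequenced as paired-end mRNA libraries, per the labels' protocols, which call the samples of a group biological replicates. Per the submitters' processing notes the authors used FastQC 0.11.5, Trimmomatic 0.35, STAR 2.5.3, Cufflinks and Cuffdiff with hg38; neither labels nor headers state the annotation release or the strand setting. The authors deposited 4 Cuffdiff tables, 1 per treatment, each with 1 FPKM for WT and 1 for KO made from both samples. Per the file headers they also hold the authors' log2 ratio of KO over WT, its test statistic (a score) and its p-value. Read depth is not known from FPKM, and columns of no sample numbered 0.

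Genes were joined by identifier and ratios were taken with a pseudocount of 1, an inclusion threshold of 5 FPKM in one group and centring on the median. Such a ratio understates the change of low genes. The error bound was made from the deposited log2 ratio and statistic; the normal quantile of the deposited p-value was a median 1.49 times (control) and 1.48 times (cisplatin) the statistic, so the bound is wide. Spans came from the locus column, GENCODE release 29 and RefSeq (GRCh38.p14), and promoters from RefSeq. Named genes were the 15 highest and 15 lowest ratios, the 10 largest FPKM gains and losses, up to 6 per list over 47 lists and 17 genes fixed by name; protein-coding genes also 2-fold different in KO cells were added afterwards, as were the span bins by GENCODE. The members and lists were chosen with earlier results of these data known. Alternatives were other pseudocounts, thresholds, scalings, spans and gene sets. The ratio code was tested on simulated data. Python 3.11.15, pandas 2.3.3, numpy 2.4.6 and matplotlib 3.10.9 were used. A few genes, and a list of targets of one of them, are not reported here.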

Additional observations from a re-analysis of the deposited data

Results flagged for a closer look

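Opposite directions in the genotypes were seen for 2 entries, each at least 2-fold higher after cisplatin in WT and at least 2-fold lower in KO cells. Y_RNA, a small noncoding RNA, was listed at 0 in WT control and had 6.49 FPKM in WT cisplatin, against 11.3 in KO control and 0 in KO cisplatin, and its log2 ratios differed by 6.56. TUG1_1, another short noncoding entry, was listed at 0 in WT control and had 6.40 FPKM in WT cisplatin, against 6.08 and 0.772 in the KO groups, a difference of 4.92. Both differences rest on values listed at 0, so their size is set by the pseudocount of 1 and is no fold. Neither has an error bound, and the difference between the genotypes was not tested.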

How the results depend on the processing

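No paired analysis was possible because the tables hold 1 value per group, and for the same reason leaving out each replicate could not be run. With a pseudocount of 5, 170 genes were at least 2-fold higher and 269 lower, against 411 and 506. With a threshold of 1 FPKM the counts were 651 and 774, and with no threshold 769 were higher; these alternatives test other numbers of genes or shrink low ratios by construction. Without the genes whose WT control stood apart, an alternative chosen after seeing the data, 345 were higher and 473 lower. The median ratio of genes over 300 kb minus that of genes under 10 kb was -0.68 by locus span, -1.58 by RefSeq span and -0.58 by locus span at 20 FPKM or more. By GENCODE span, added after seeing the data, it was -1.57, with -1.63 for protein-coding genes and -1.55 without the genes whose WT control stood apart. It was below 0 in each of these. Of 43 lists with 3 members or more, the median of 10 turned sign under another scaling, and of 317 named genes 1 did, none of the 145 that differed at least 2-fold.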
